A study of Mus musculus with 15 samples.

Results

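Fatty acid uptake and oxidation genes were followed in left-ventricular cardiomyocytes of mice that had received protons or a sham treatment. The set holds 40 genes, chosen by symbol for their roles in fatty acid uptake, activation, mitochondrial oxidation and its nuclear control. Of these, 38 were measured, among 19937 genes with a probe set of their own on the Affymetrix Mouse Gene 1.0 ST array. In the annotation used here no probe set was listed under Acsl1, and the probe set of Cpt1b also carried the symbol Gm44502, so neither gene was given a value. All 38 measured genes lay above the signal filter (a mean log2 signal over 5.00), as did 12102 genes in all.

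All mice were male C57Bl/6NT, an inbred laboratory strain, aged 8 to 9 months. Exposed mice had whole-body irradiation with 1 GeV protons (90 cGy), and cells were taken 1, 3, 5, 12 or 26 days later by the sample titles (2, 3, 3, 2 and 2 arrays). The sham arrays, 2 of day 1 and 1 of day 3, were the control of every day. The design text names other days and iron ions as well, and iron ions were not analysed here. Cells were freed with collagenase and selected in a calcium gradient, and the labels allow for some inflammatory and endothelial cells in the suspension. Proton day 5 replicates 1 and 2 differed by an SD of 0.0768 in log2 signal over the genes tested, against at least 0.222 for every other pair of arrays. They were averaged and counted as 1 sample, giving 14 samples in all. Whether each array stands for a separate mouse is not in the labels, so p-values measure only the spread between these samples, which may be technical. Precision is limited by the small number of arrays. In RNA of a cell suspension, fewer cells of a type and less RNA per cell cannot be told apart.

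The identity of the cells was checked against 10 cardiomyocyte markers, all of which lay above the filter, with mean log2 signals from 11.1 (Ryr2) to 12.6 (Actc1). Endothelial, fibroblast and macrophage markers, 10 genes each and all above the filter, were also present. Their mean log2 deviation from each gene's average, here called the score of other cells, was 0.13 and 0.52 in the day 1 samples, -0.65, -0.73 and 0.51 at day 3, -0.05 and 0.10 at day 5, -0.28 and 0.75 at day 12 and 0.45 and 0.06 at day 26, against -0.25, -0.08 and -0.48 in sham samples. Day 12 replicate 2, day 1 replicate 2, day 3 replicate 3 and day 26 replicate 1 were thus high in markers of other cells. Day 3 replicates 1 and 2 were the lowest, and all 3 sham samples were below 0. Of 8 adipocyte markers, 5 lay above the filter. The defining markers Adipoq and Lep lay below it, at mean log2 signals of 4.47 and 4.20, and Cfd was not listed.

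The adult heart draws most of its energy from fatty acids. Long-chain fatty acids enter through CD36 and transport proteins, are bound to coenzyme A, pass into mitochondria on carnitine and are shortened in a spiral of dehydrogenation, hydration, dehydrogenation and thiolysis. Electrons of the acyl-CoA dehydrogenases reach the respiratory chain through the electron transfer flavoprotein and its dehydrogenase. The nuclear receptors PPAR-alpha and the oestrogen-related receptors, with the coactivators PGC-1alpha and PGC-1beta, are known to drive transcription of these genes in heart muscle.

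RefSeq promoter windows (GRCm38.p6, 250 bases before and 50 bases after a start site) were found for 33 of the 40 genes, 43 windows in all. Acaa2, Acot13, Cpt1b, Crat, Decr1, Lpl and Ppargc1b had none in the table. The oestrogen-related receptor element TCAAGGTCA was searched on both strands and lay in 0 of the 43 windows, and in 0.423% of all 32851 windows. The nuclear receptor core motif AGGTCA, which is part of the longer element, lay in 8 of the 43 windows (18.6%, against 16.3% of all windows), those of Acadm, Acadvl, Cd36, Cpt1a, Echs1, Plin5 and Rxra. A pair of such motifs 1 base apart, the form that PPAR and RXR bind, lay in 0 of the 43 windows and in 0.0396% of all windows. These matches are descriptions of letters in short windows only.

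Hadha and Hadhb, which encode the alpha and beta subunits of the mitochondrial trifunctional protein, face away from each other with start sites at 30154980 and 30155253 of chromosome 5, 272 bases apart, so that their windows share 228 bases. That stretch is shown because the subunits form 1 complex and their levels are compared below. In the window of Hadhb (chr5:30155003-30155302, plus strand) the capitals mark the bases shared with the window of Hadha.
Hadhb: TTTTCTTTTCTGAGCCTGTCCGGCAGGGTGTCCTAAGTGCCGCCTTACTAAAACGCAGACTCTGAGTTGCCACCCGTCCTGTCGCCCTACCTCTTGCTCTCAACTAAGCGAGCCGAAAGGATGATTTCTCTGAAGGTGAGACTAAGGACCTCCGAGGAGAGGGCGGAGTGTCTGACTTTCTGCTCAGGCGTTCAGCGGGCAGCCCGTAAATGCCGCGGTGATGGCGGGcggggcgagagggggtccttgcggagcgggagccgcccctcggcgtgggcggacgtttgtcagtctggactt
The windows of Acadm (chr3:153944594-153944893, minus strand) and Cd36 (chr5:17835847-17836146, minus strand) are shown as 2 that hold the core motif. The capitals mark the motif, which is read here on the opposite strand as TGACCT.
Acadm: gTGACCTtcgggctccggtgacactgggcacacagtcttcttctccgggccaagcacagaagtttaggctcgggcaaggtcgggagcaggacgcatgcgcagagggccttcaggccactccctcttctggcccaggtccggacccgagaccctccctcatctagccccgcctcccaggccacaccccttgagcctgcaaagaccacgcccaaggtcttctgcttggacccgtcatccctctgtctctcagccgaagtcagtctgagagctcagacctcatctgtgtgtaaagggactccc
Cd36: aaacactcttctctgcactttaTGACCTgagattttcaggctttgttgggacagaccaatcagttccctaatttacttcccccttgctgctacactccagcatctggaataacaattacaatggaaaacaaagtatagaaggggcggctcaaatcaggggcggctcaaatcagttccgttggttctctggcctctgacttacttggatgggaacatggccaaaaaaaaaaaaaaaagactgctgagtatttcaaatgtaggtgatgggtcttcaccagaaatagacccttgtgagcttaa
The window of Ppargc1a (chr5:51567676-51567975, minus strand) is shown because this gene had the smallest p-value of the set at day 3, and it holds neither motif.
Ppargc1a: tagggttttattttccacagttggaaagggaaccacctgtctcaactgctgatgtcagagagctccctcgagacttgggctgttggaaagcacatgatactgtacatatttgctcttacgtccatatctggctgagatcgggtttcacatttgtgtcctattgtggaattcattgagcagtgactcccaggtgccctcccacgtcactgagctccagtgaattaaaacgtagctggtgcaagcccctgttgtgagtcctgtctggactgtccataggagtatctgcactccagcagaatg

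None of the 38 genes passed the threshold of a Benjamini-Hochberg adjusted p of 0.05 over all genes tested (limma) in any of 9 comparisons. The differences were small: of 190 differences between a proton day and sham (38 genes on 5 days), 163 were under 0.2 in size on the log2 scale and 189 under 0.5. The 95% interval stayed within a log2 difference of 1 either way, which is a 2-fold difference, for 187 of the 190. The exceptions were Acot1 at days 5 and 12 and Lipe at day 26. The interval stayed within 0.5, a 1.41-fold difference, for 161. The median range of the set over the 14 samples was 0.36, against 0.62 for all genes tested. Signal was not matched in that comparison, and Acot1, the gene of the set with the lowest signal, had the widest range, 1.29.

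**Figure D1:**
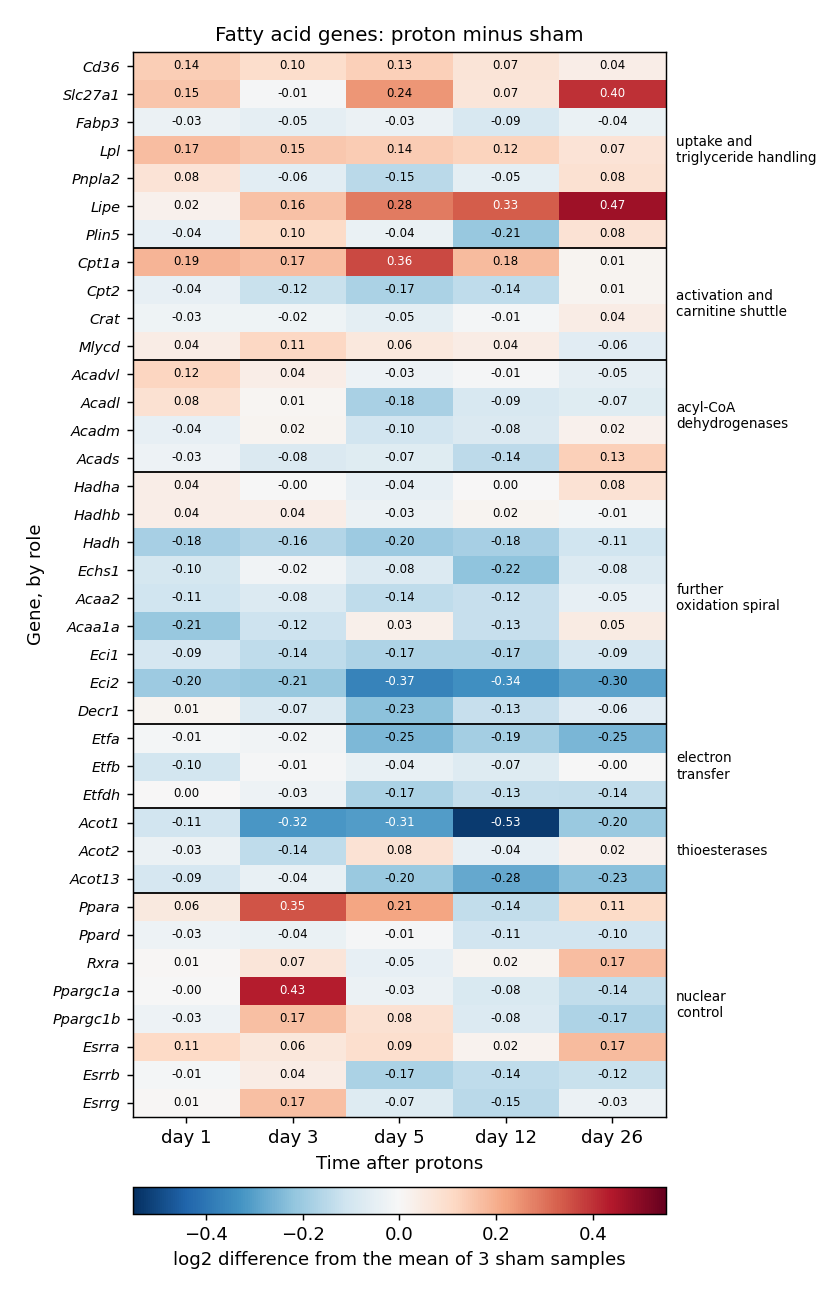
Log2 difference of each of the 38 measured genes from the mean of the 3 sham samples (colour and printed value), with genes in rows by role and days after protons in columns. Most cells lie under 0.2 in size, and the value furthest from 0 is -0.53 for Acot1 at day 12.

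At day 1, 0 of the 38 genes were called, as were 0% of all genes, and 2 genes (5.26%, against 5.5% of all genes) had an unadjusted p under 0.05: Hadh, lower than sham, and Lpl, higher. Both day 1 samples lay above all sham samples for 1 gene, Hadhb (14.2% of all genes did), and below them for 4 genes, Hadh, Acaa2, Eci1 and Etfb (14.9% of all genes). The median log2 difference of the 38 genes was -0.01 at day 1, beside -0.01 for all genes. At day 3, 0 genes of the set were called, beside 0.00826% of all genes, and 4 (10.5%, against 8.86%) had an unadjusted p under 0.05. These were Ppargc1a, Ppara and Lpl, higher than sham, and Hadh, lower. The 3 day 3 samples lay above all sham samples for Ppargc1a, Ppara and Esrrg (8% of all genes did) and below them for Hadh alone (4.39% of all genes). The median of the set was -0.01, beside 0.00 for all genes.

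Day 5 had the most genes of the set on the low side of sham without overlap. Both day 5 samples lay below all sham samples for 13 of the 38 genes (34.2%), while 15.8% of all genes did so, and above them for Cpt1a and Ppara (5.26%, against 16.8% of all genes). The 13 genes were Cpt2, Acadl, Acadm, Hadhb, Hadh, Acaa2, Eci1, Eci2, Decr1, Etfa, Etfdh, Acot13 and Esrrb. None was called (0.0496% of all genes were), and 7 (18.4%, against 8.99%) had an unadjusted p under 0.05, 6 of them lower than sham. The median of the set was -0.05 at day 5, beside 0.01 for all genes, and 27 of the 38 genes had a mean below sham. With only genes of a mean signal over 6.67 kept, the day 5 medians were closer, at -0.04 for the set and -0.02 for all genes. The shares of genes without overlap were not matched for signal.

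At day 12, 28 of the 38 genes had a mean below sham, with a median of -0.09 beside 0.01 for all genes. With only genes of a mean signal over 6.67 kept, these medians were -0.08 and -0.01. Again 0 genes were called (0% of all genes), and 4 (10.5%, against 8.01%), all lower, had an unadjusted p under 0.05. Both samples lay below all sham samples for Acadl, Acads, Hadh, Eci1, Decr1, Etfa and Etfdh (18.4%, against 11.2% of all genes), and above them for 0 genes (9.92% of all genes). Its size rested on 1 array: the median was -0.03 without day 12 replicate 2, the sample highest in markers of other cells, and -0.16 without day 12 replicate 1. At day 26, 0 genes were called (0.0413% of all genes), and 4 (10.5%, against 14.3%) had an unadjusted p under 0.05. Slc27a1, Acads and Esrra lay above all sham samples (7.89%, against 24.7% of all genes), and Hadh, Eci1, Eci2, Etfa, Etfdh, Acot13 and Ppard below them (18.4%, against 14.1%). The median at day 26 was -0.02, beside 0.05 for all genes, and -0.01 beside 0.00 with only genes over 6.67 kept. This sign depended on the scaling: the median was 0.01 after quantile normalization and -0.13 with equal array medians, a setting that moved the median of all genes by -0.11, and 0.00 without day 26 replicate 2. The medians of days 1 and 3 also took the other sign after quantile normalization, at 0.00 both. That of day 1 was 0.05 with equal array medians, beside 0.05 for all genes. Those of days 5 and 12 stayed negative under both scalings, and the medians of all genes were then negative too. After quantile normalization the set had -0.03 at day 5 and -0.08 at day 12, beside -0.02 and -0.02 for all genes. With equal array medians the set had -0.10 and -0.11, beside -0.05 and -0.02.

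Over the mean of the 5 proton days minus sham, 0 genes of the set were called (0.0248% of all genes) and 5 (13.2%, against 12%) had an unadjusted p under 0.05. Hadh was the only gene of the set with all 11 proton samples below all 3 sham samples (0.909% of all genes), and 0 genes had all proton samples above (0.826% of all genes). The mean was below sham on each of the 5 days for 11 genes (28.9%, against 17.6% of all genes): Fabp3, Hadh, Echs1, Acaa2, Eci1, Eci2, Etfa, Etfb, Acot1, Acot13 and Ppard. It was above sham on each day for Cd36, Lpl, Lipe, Cpt1a and Esrra (13.2%, against 21%). Since all days share the 3 sham samples, the days are not independent in this count. Between late and early days (mean of days 12 and 26 minus mean of days 1 and 3), a comparison without sham samples, 0 genes were called (0.00826% of all genes). In it, 7 genes (18.4%, against 13.2%) had an unadjusted p under 0.05, all lower on the late days: Etfa, Ppargc1a, Acadl, Etfdh, Ppara, Acot13 and Esrrg. The F-test of all 5 proton days against sham gave 0 called genes in the set (0.0248% of all genes) and 6 (15.8%, against 9.54%) at an unadjusted p under 0.05. The F-test among the 5 proton days gave 0 called genes (0% of all genes) and 5 (13.2%, against 8.43%).

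Among the uptake and triglyceride genes, only Slc27a1 lay above all sham samples at day 26. Slc27a1 encodes the fatty acid transport protein FATP1, which takes up long-chain fatty acids and couples uptake to their activation. Slc27a1 had log2 signals of 9.02 and 9.12 at day 1, 8.87, 9.08 and 8.78 at day 3, 9.22 and 9.10 at day 5, 9.02 and 8.95 at day 12 and 9.25 and 9.39 at day 26, against 8.90, 9.12 and 8.73 in sham samples. Both day 26 samples lay above every other sample, and the other days overlapped sham. The day 26 difference was 0.40 ± 0.12 (SE; 1.32-fold, limma adjusted p = 0.192). With array weights it was 0.42, with an adjusted p of 0.0489, a setting under which 309 genes were called at day 26. The summed linear signal of the 5 measured adipocyte markers was 306 to 335 at day 1, 262 to 446 at day 3 and 380 to 396 at day 5. It was 308 to 473 at day 12 and 359 to 609 at day 26, against 286 to 323 in sham samples. Of these 5, Cidec, Retn, Ucp1 and Plin1 had day 26 means above sham, by log2 differences of 1.75, 1.71, 1 and 0.51. Cidea was lower than sham at day 26 (7.05 and 6.94, against 7.38, 7.35 and 7.29). Day 26 replicate 2, with the higher Slc27a1, had the lower mean deviation of these markers (0.14, beside 0.97 in replicate 1), and their part in the Slc27a1 difference was not tested.

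Lpl and Cd36 lay slightly above sham on every day. Lpl encodes lipoprotein lipase, which frees fatty acids from circulating triglycerides, and Cd36 the main fatty acid translocase of heart muscle. Lpl measured 11.70 and 11.80 at day 1, 11.75, 11.67 and 11.77 at day 3, 11.68 and 11.76 at day 5, 11.60 and 11.81 at day 12 and 11.67 and 11.64 at day 26, against 11.53, 11.70 and 11.51 in sham samples. Sham day 1 replicate 2 lay within the proton samples and the other sham samples below all of them. The mean difference over the 5 days was 0.13 ± 0.05 (limma adjusted p = 0.378), and the day 1 difference 0.17 ± 0.07 (adjusted p = 0.754). With the score of other cells in the fit, the day 1 difference was 0.09. For Cd36, the proton samples ranged from 11.47 to 11.62, against sham values of 11.41, 11.59 and 11.40. The day 1 difference was 0.14 ± 0.06 (limma adjusted p = 0.754), and 0.09 with the score of other cells in the fit. The same sham sample, day 1 replicate 2, again overlapped the proton samples. Both genes are also expressed in endothelial cells, macrophages or adipocytes, and the part of those cells was not tested. The summed linear signal of the 30 endothelial, fibroblast and macrophage markers was 5160 to 14700 in proton samples, against 6040 to 8360 in sham samples.

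Lipe, the hormone-sensitive lipase that cleaves diacylglycerol in fat stores, had the widest scatter of the uptake group. Its signals were 7.04 and 7.34 at day 1, 6.91, 7.75 and 7.33 at day 3, 7.55 and 7.36 at day 5, 7.54 and 7.46 at day 12 and 7.76 and 7.51 at day 26, against 7.28, 7.53 and 6.69 in sham samples. Every day overlapped sham. The day 26 difference was 0.47 ± 0.25, with a 95% interval from -0.08 to 1.01 (limma adjusted p = 0.410). Fabp3, the heart-type fatty acid binding protein, ranged from 11.77 to 11.93 in proton samples, against 11.83 to 11.99 in sham samples. A further probe set of Fabp3 gave day differences from -0.02 to 0.10. Pnpla2, the adipose triglyceride lipase, ranged from 10.29 to 10.60 against 10.27 to 10.67, and Plin5, which coats lipid droplets at mitochondria, from 7.31 to 8.11 against 7.44 to 7.94. No day of Fabp3, Pnpla2 or Plin5 separated from sham.

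**Figure D2:**
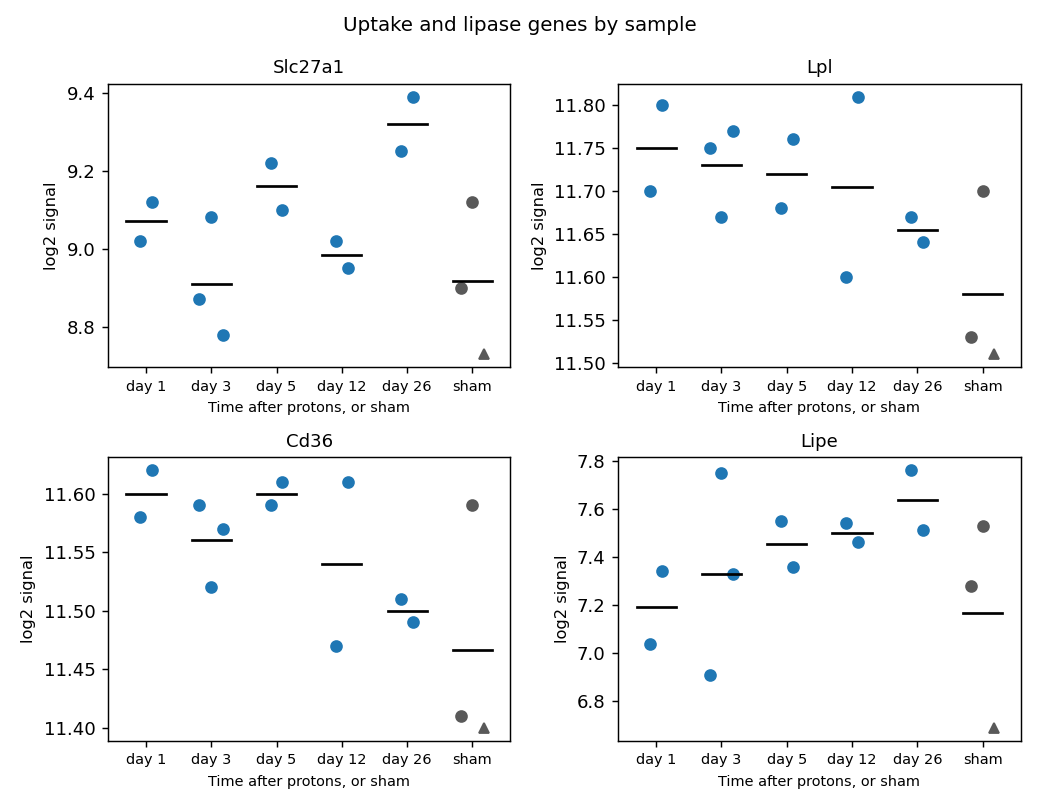
Log2 signal of Slc27a1, Lpl, Cd36 and Lipe in each sample (blue points, proton samples by day; grey circles, sham day 1; grey triangle, sham day 3; bars, group means). Slc27a1 is highest in both day 26 samples (9.25 and 9.39), and sham day 1 replicate 2 overlaps the proton samples in all 4 panels.

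The 4 measured genes of activation and the carnitine shuttle in the set had day differences from -0.17 (Cpt2) to 0.36 (Cpt1a). Acsl1 and Cpt1b of this group were not measured. Cpt1a encodes the liver-type carnitine palmitoyltransferase of the outer mitochondrial membrane, the control point of entry. Its signals were 8.25 and 8.46 at day 1, 8.19, 8.29 and 8.51 at day 3, 8.63 and 8.41 at day 5, 8.07 and 8.60 at day 12 and 8.14 and 8.21 at day 26, against 8.02, 8.36 and 8.11 in sham samples. Both day 5 samples lay above sham, by 0.36 ± 0.16 on average (limma adjusted p = 0.546). Cpt2, the inner-membrane enzyme, ranged from 9.77 to 10.05 in proton samples and from 9.97 to 10.10 in sham samples, with 9.84 and 9.86 at day 5. Crat, carnitine acetyltransferase, ranged from 10.94 to 11.07 against 10.93 to 11.11. Mlycd, which breaks down the CPT1 inhibitor malonyl-CoA, ranged from 7.45 to 8.02 against 7.45 to 7.74. Neither Crat nor Mlycd separated any day from sham.

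The acyl-CoA dehydrogenases catalyse the entry step of each round of oxidation, each for its own chain lengths. Acadl, the long-chain enzyme, had signals of 10.59 and 10.68 at day 1, 10.52, 10.60 and 10.57 at day 3, 10.31 and 10.43 at day 5, 10.46 and 10.46 at day 12 and 10.52 and 10.45 at day 26, against 10.53, 10.60 and 10.52 in sham samples. The day 5 and day 12 samples lay below all samples of days 1 and 3 and of sham. The differences were -0.18 ± 0.06 at day 5 (0.884-fold, limma adjusted p = 0.452) and -0.13 ± 0.05 between late and early days (adjusted p = 0.280). Acadvl, the very-long-chain enzyme of the inner membrane, ranged from 9.56 to 9.85 in proton samples, against 9.60 to 9.72 in sham samples. Acadm, the medium-chain enzyme, ranged from 11.26 to 11.53 against 11.35 to 11.49. Acads, the short-chain enzyme, had 9.49 and 9.51 at day 26 and 9.31 and 9.13 at day 12, against 9.31, 9.41 and 9.37 in sham samples. Its means thus lay 0.13 above and 0.14 below sham on those days.

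In the further steps of the spiral, Hadh gave the most uniform difference from sham. Hadh encodes the short-chain 3-hydroxyacyl-CoA dehydrogenase of the matrix. Its signals were 11.28 and 11.20 at day 1, 11.22, 11.35 and 11.23 at day 3, 11.21 and 11.25 at day 5, 11.30 and 11.19 at day 12 and 11.35 and 11.28 at day 26, against 11.42, 11.37 and 11.48 in sham samples. All 11 proton samples lay below all 3 sham samples, the nearest values being 11.35 and 11.37. The mean difference over the 5 days was -0.17 ± 0.04 (0.891-fold, 95% interval of the log2 difference -0.26 to -0.07, limma adjusted p = 0.256). By day, the difference was -0.18 ± 0.06 on day 1 (limma adjusted p = 0.754), -0.16 ± 0.05 on day 3 (adjusted p = 0.412), -0.20 ± 0.06 on day 5 (adjusted p = 0.422), -0.18 ± 0.06 on day 12 (adjusted p = 0.609) and -0.11 ± 0.06 on day 26 (adjusted p = 0.424). Between late and early days Hadh differed by 0.03 ± 0.05.

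Eci2 lay further below sham but with more scatter. Eci1 and Eci2 encode enoyl-CoA isomerases, which move double bonds of unsaturated fatty acids into place for the spiral. Eci2 had 8.78 and 8.61 at day 1, 8.54, 8.88 and 8.63 at day 3, 8.47 and 8.58 at day 5, 8.79 and 8.33 at day 12 and 8.58 and 8.62 at day 26, against 9.02, 8.70 and 8.96 in sham samples. Sham day 1 replicate 2 overlapped the samples of days 1, 3 and 12. The mean difference over the 5 days was -0.28 ± 0.10 (0.823-fold, limma adjusted p = 0.352). Eci1 ranged from 9.82 to 10.10 in proton samples and from 10.10 to 10.14 in sham samples, with a mean difference of -0.13 ± 0.06 (adjusted p = 0.429). Decr1, the dienoyl-CoA reductase also needed for unsaturated fatty acids, had 10.02 and 9.99 at day 5, against 10.27, 10.20 and 10.22 in sham samples, a difference of -0.23 ± 0.09 (adjusted p = 0.512).

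The trifunctional protein genes were level. Hadha, which carries hydratase and long-chain dehydrogenase activity, ranged from 11.10 to 11.28 in proton samples and from 11.09 to 11.23 in sham samples. Hadhb, which carries the thiolase activity, ranged from 10.89 to 11.03 against 10.93 to 10.97. The daily differences of Hadha, whose promoter window overlaps the printed one, ran from -0.04 to 0.08, and those of Hadhb from -0.03 to 0.04. The 95% interval reached furthest from 0 for Hadha at day 26, at 0.20. Echs1, the short-chain enoyl-CoA hydratase, ranged from 9.57 to 10.27 against 9.80 to 10.24, and Acaa2, the mitochondrial thiolase, from 11.45 to 11.69 against 11.56 to 11.72. Acaa1a, a thiolase of peroxisomes, ranged from 6.75 to 7.35 against 6.91 to 7.32. Its close relative Acaa1b could share its signal.

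Etfa and Etfdh had means below sham on days 5, 12 and 26 and close to sham on days 1 and 3. Etfa and Etfb encode the subunits of the electron transfer flavoprotein, and Etfdh its ubiquinone oxidoreductase in the inner membrane. Etfa had 10.05 and 10.20 at day 1, 9.99, 10.19 and 10.18 at day 3, 9.91 and 9.87 at day 5, 9.97 and 9.93 at day 12 and 9.87 and 9.89 at day 26, against 10.14, 10.09 and 10.18 in sham samples. All 6 samples of days 5, 12 and 26 lay below all samples of days 1 and 3 and of sham. The differences from sham were -0.01 and -0.02 on days 1 and 3, -0.25 ± 0.08 on day 5 (limma adjusted p = 0.422), -0.19 ± 0.08 at day 12 (adjusted p = 0.611) and -0.25 ± 0.08 at day 26 (0.839-fold, adjusted p = 0.195). Between late and early days Etfa differed by -0.20 ± 0.06 (limma adjusted p = 0.194), and the F-test among the 5 days gave an adjusted p of 0.481.

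Etfdh had a like order of days, with 10.48 and 10.54 at day 1, 10.40, 10.54 and 10.49 at day 3, 10.30 and 10.36 at day 5, 10.41 and 10.34 at day 12 and 10.42 and 10.31 at day 26, against 10.48, 10.52 and 10.52 in sham samples. Here day 3 replicate 1 lay among the later samples. The differences were -0.17 ± 0.06 at day 5 (limma adjusted p = 0.474), -0.13 ± 0.06 at day 12 (adjusted p = 0.616) and -0.14 ± 0.06 at day 26 (adjusted p = 0.347). The day 26 difference ran from -0.19 to -0.08 when single arrays were left out. Etfb did not share this order. Its proton samples ranged from 11.49 to 11.78, against 11.59 to 11.73 in sham samples, and its difference between late and early days was 0.02 ± 0.06.

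**Figure D3:**
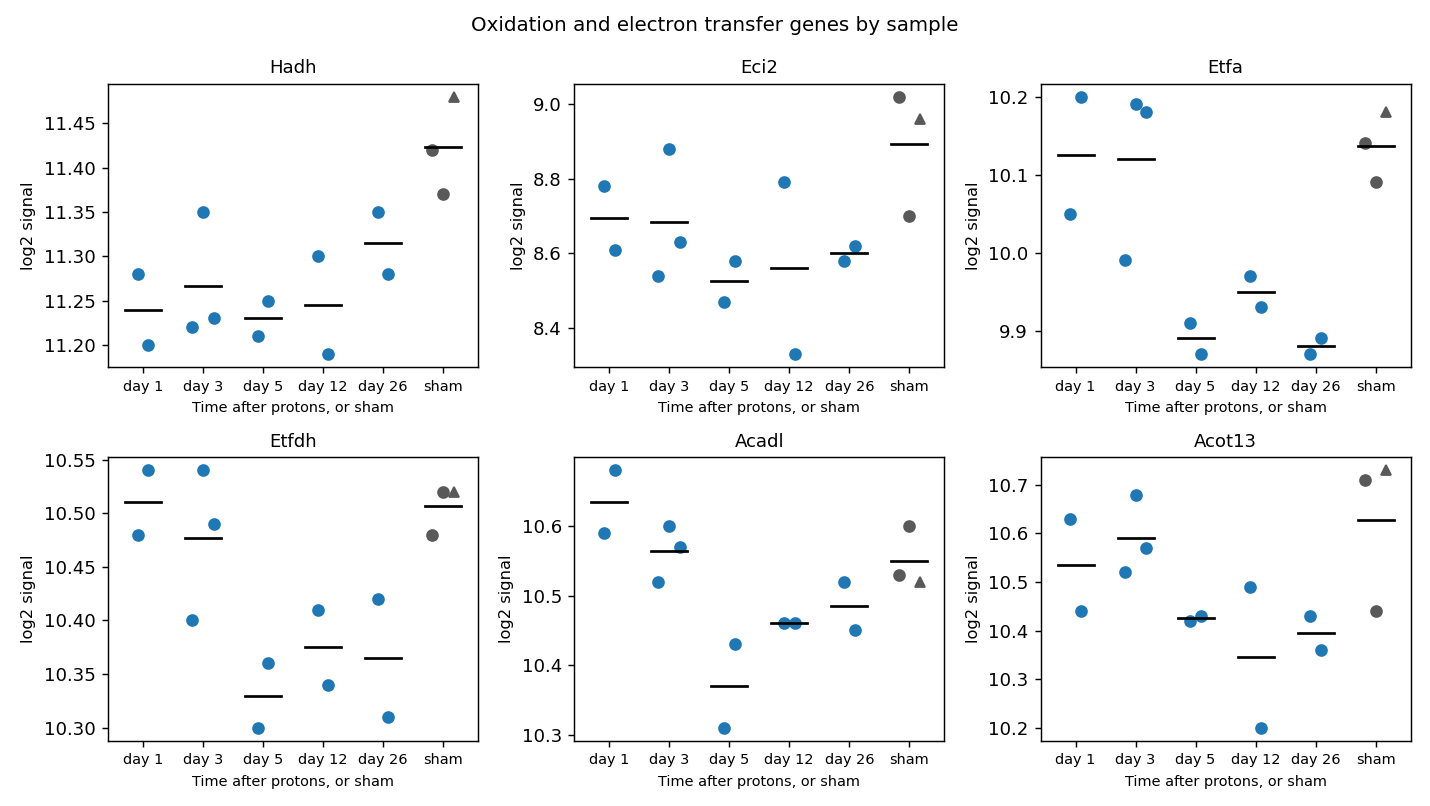
Log2 signal of Hadh, Eci2, Etfa, Etfdh, Acadl and Acot13 in each sample (blue points, proton samples by day; grey circles, sham day 1; grey triangle, sham day 3; bars, group means). Hadh lies below sham in all 11 proton samples, and Etfa in the 6 samples of days 5, 12 and 26 (9.87 to 9.97, against 10.09 to 10.18 in sham).

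Thioesterases release fatty acids from coenzyme A. Acot13, an enzyme associated with mitochondria, had 10.63 and 10.44 at day 1, 10.52, 10.68 and 10.57 at day 3, 10.42 and 10.43 at day 5, 10.49 and 10.20 at day 12 and 10.43 and 10.36 at day 26, against 10.71, 10.44 and 10.73 in sham samples. Sham day 1 replicate 2 (10.44) lay close to the later samples and far from the other sham samples. The day 12 difference was -0.28 ± 0.11 (0.822-fold, limma adjusted p = 0.609), and ran from -0.43 to -0.14 when single arrays were left out. Acot1, a cytosolic enzyme, had the lowest signal of the set and the widest spread, from 5.00 to 6.14 in proton samples and from 5.49 to 6.28 in sham samples. Its day 12 difference of -0.53 ± 0.34 had a 95% interval from -1.27 to 0.21. Acot2, its mitochondrial counterpart, ranged from 10.10 to 10.66 against 10.10 to 10.78. The coding sequences of Acot1 and Acot2 are closely alike, so the signal of either may hold RNA of the other.

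Among the genes of nuclear control, Ppargc1a was higher at day 3 than on any other day. Ppargc1a encodes PGC-1alpha, the coactivator of mitochondrial and fatty acid oxidation genes. It had log2 signals of 10.17 and 10.22 at day 1, 10.72, 10.55 and 10.62 at day 3, 10.15 and 10.19 at day 5, 9.93 and 10.30 at day 12 and 10.06 and 10.06 at day 26, against 10.37, 10.25 and 9.97 in sham samples. The 3 day 3 samples lay above all 11 others, and the other days overlapped sham. The day 3 difference was 0.43 ± 0.11 (1.35-fold, limma adjusted p = 0.271). Between late and early days it was -0.32 ± 0.09 (adjusted p = 0.194), and the F-tests gave adjusted p-values of 0.310 for any day against sham and 0.334 among the days.

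A further probe set of Ppargc1a, examined after the values of the gene were known, also placed the 3 day 3 samples above all others. Its signals there were 10.22, 10.19 and 10.27, against 9.66, 9.73 and 9.18 in sham samples, and the remaining proton samples lay between 9.42 and 9.79. The difference was 0.70 ± 0.14 (limma adjusted p = 0.205). The call for Ppargc1a changed when the score of other cells was added to the fit: the day 3 difference stayed at 0.43 with an adjusted p of 0.0464, and that between late and early days was -0.36 with an adjusted p of 0.0329. That fit called 100 and 359 genes in all in these comparisons. In the day 3 samples the score was low in replicates 1 and 2 and high in replicate 3, and Ppargc1a was above sham in all 3. The part of other cells in the Ppargc1a difference was not tested beyond that fit.

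Ppara, the fatty acid receptor PPAR-alpha, had 8.10 and 8.36 at day 1, 8.48, 8.66 and 8.41 at day 3, 8.42 and 8.35 at day 5, 7.99 and 8.09 at day 12 and 8.26 and 8.29 at day 26, against 8.20, 8.30 and 8.01 in sham samples. Days 3 and 5 lay above sham without overlap. The day 3 difference was 0.35 ± 0.10 (1.27-fold, limma adjusted p = 0.341), and the late days differed from the early days by -0.22 ± 0.09 (adjusted p = 0.320). Esrrg, the oestrogen-related receptor gamma, had 7.84, 7.86 and 7.87 at day 3, against 7.74, 7.78 and 7.55 in sham samples. Its other proton samples ranged from 7.51 to 7.76. The day 3 difference was 0.17 ± 0.09 (adjusted p = 0.629), and the late days differed from the early days by -0.18 ± 0.08 (adjusted p = 0.358).

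The other 5 genes of nuclear control overlapped sham on most days. Esrra, the oestrogen-related receptor alpha, had 7.43 and 7.43 at day 26, against 7.21, 7.39 and 7.17 in sham samples, and its signals at day 12, 7.58 and 6.97, were the furthest apart. Esrrb, the related beta receptor, ranged from 6.30 to 6.78 in proton samples and from 6.46 to 6.74 in sham samples. Ppargc1b, the coactivator PGC-1beta, ranged from 7.00 to 7.61 against 7.05 to 7.43, Ppard, the receptor PPAR-delta, from 7.20 to 7.47 against 7.37 to 7.46, and Rxra, the partner receptor of the PPARs, from 7.48 to 7.77 against 7.47 to 7.66. At day 3, when Ppargc1a, Ppara and Esrrg lay above sham, the 30 genes outside nuclear control had means from -0.32 (Acot1) to 0.17 (Cpt1a) relative to sham.

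**Figure D4:**
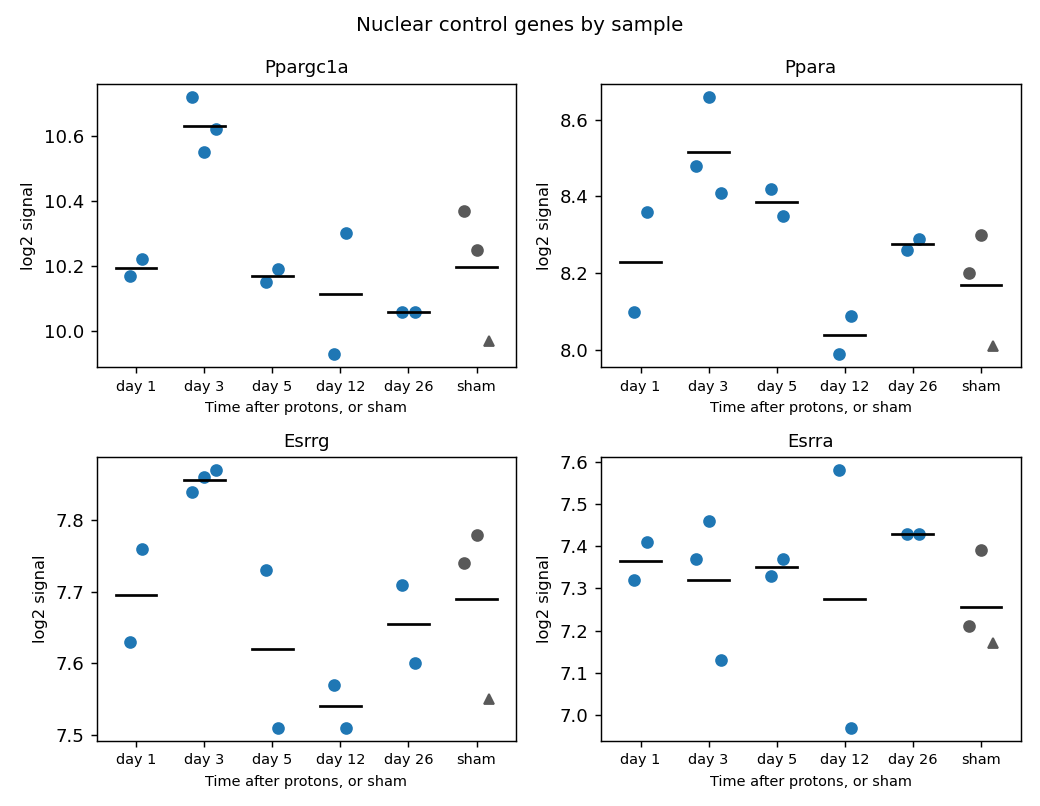
Log2 signal of Ppargc1a, Ppara, Esrrg and Esrra in each sample (blue points, proton samples by day; grey circles, sham day 1; grey triangle, sham day 3; bars, group means). The 3 day 3 samples lie above all sham samples for Ppargc1a, Ppara and Esrrg, and those of Ppargc1a (10.55 to 10.72) above every other sample.

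The mean log2 deviation of the 38 genes lay between -0.12 and 0.15 in proton samples (day 12 replicate 2 and day 3 replicate 2), against -0.06 to 0.07 in sham samples. Over all 14 samples, the cardiomyocyte markers spanned less, from -0.04 to 0.04, as did the other fatty acid genes, from -0.09 to 0.07, and the score of other cells more, from -0.73 to 0.75. The sample with the lowest mean of the set had the highest score of other cells, and the sample with the highest mean had the lowest score. Not every sample kept this order. Sham day 3 replicate 1 had a score of -0.48 and a set mean of -0.06, and day 1 replicate 2 had 0.52 and 0.03. The part of other cells in the differences was not tested beyond the fit with the score.

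**Figure D5:**
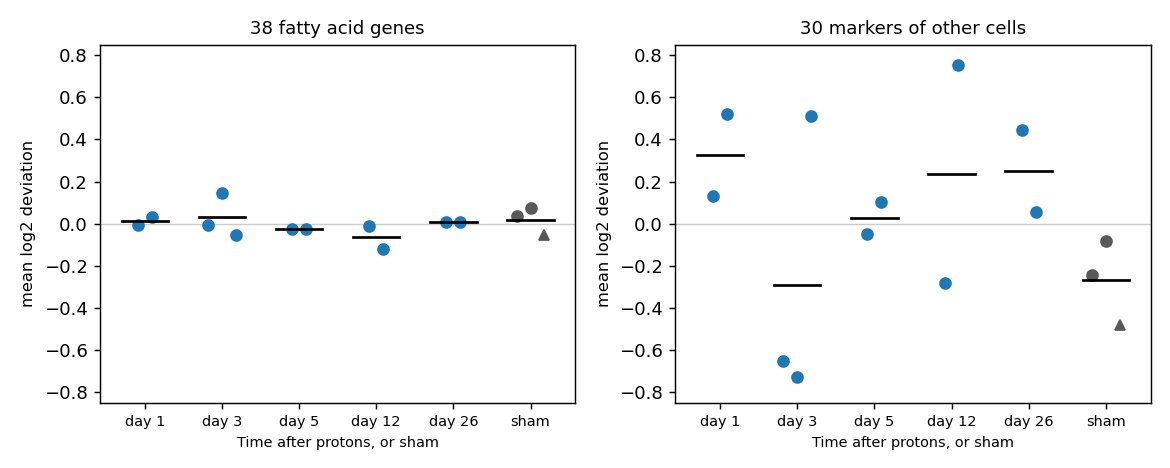
Mean log2 deviation of the 38 fatty acid genes (left) and of 30 endothelial, fibroblast and macrophage markers (right) from each gene's average, by sample (blue points, proton samples by day; grey circles, sham day 1; grey triangle, sham day 3; bars, group means). On the same axis the fatty acid genes span -0.12 to 0.15 and the markers of other cells -0.73 to 0.75.

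Of 55 other genes of fatty acid metabolism, 45 lay above the filter and 0 were called in any of the 9 comparisons. By unadjusted p under 0.05 over the mean of the 5 days, 4 were higher and 2 lower than sham, 6 of 45 beside 12% of all genes. The smallest p-values in that comparison were those of Vldlr, Klf15 and Acad11. Vldlr, the very low density lipoprotein receptor, which aids uptake of triglyceride-rich particles, ranged from 9.72 to 9.94 in the 11 proton samples, against 9.41, 9.64 and 9.39 in sham samples. Every proton sample lay above every sham sample (0.826% of all genes did), with a mean difference of 0.31 ± 0.06 (limma adjusted p = 0.114). Klf15, a transcription factor of cardiac lipid metabolism, differed by 0.25 ± 0.08 (adjusted p = 0.316) over the 5 days and by 0.47 ± 0.10 at day 3 (adjusted p = 0.222).

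Acad11, an acyl-CoA dehydrogenase family member, lay low on days 5, 12 and 26, as Etfa did. Its signals were 9.31 and 9.33 at day 1, 9.27, 9.27 and 9.41 at day 3, 9.04 and 9.00 at day 5, 9.01 and 8.91 at day 12 and 8.96 and 8.93 at day 26, against 9.16, 9.29 and 9.36 in sham samples. All samples of days 5, 12 and 26 lay below all others. The late days differed from the early days by -0.37 ± 0.06 (limma adjusted p = 0.0681), and the day 26 samples from sham by -0.33 ± 0.08 (adjusted p = 0.132).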

How the data were processed

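RNA of isolated cardiomyocytes was hybridised to 15 arrays. The authors deposited a log2 signal per array for each of 34760 probe sets. The submitters' processing notes name MAS5 with no version, and the background correction and normalization are not given in the sources used here. The deposited log2 values were used as they were. Array medians lay between 4.90 and 5.16.

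Of the probe sets, 21640 carried 1 gene symbol in the platform annotation, 1321 several and 11799 none. Each gene was represented by its single-symbol probe set with the highest mean, and kept if that mean exceeded 5.00, the median of all probe sets. The 14 samples, in 6 groups, entered a linear model of limma 3.58.1 (R 4.3.3; lmFit and trended eBayes). It had 8 residual and 12.1 total degrees of freedom, and p-values were adjusted over all 12102 genes. Summaries used Python 3.11.15, numpy 2.4.6 and pandas 2.3.3. The procedure was tested on simulated data before use. The averaging of proton day 5 replicates 1 and 2 was planned for the case that their values proved nearly the same.

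All members were described, and the 3 with the smallest p in each comparison were given with fold change, SE and adjusted p. From the other fatty acid genes, the 3 with the smallest p over the mean of the 5 days were named, and further samples or genes singled out were chosen after their values were seen. The members and lists were chosen with earlier results of these data known. Alternatives covered scaling, filters, probe sets, variance models, sham samples, the score of other cells, a replicate block and leaving out each array.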

Additional observations from a re-analysis of the deposited data

How the results depend on the processing

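The count of called genes in the set stayed at 0 in all 9 comparisons under 11 of 13 other settings (1 of the 13, the further probe sets of Ppargc1a and Fabp3, chosen after seeing the data) and under all 15 fits that left out an array (lowest 0, highest 0). With array weights it was 1 at day 26 (Slc27a1, 0.42, limma adjusted p = 0.0489). With the score of other cells in the fit it was 1 at day 3, 1 between late and early days and 1 in the F-test for any day against sham, each time Ppargc1a (adjusted p = 0.0464, 0.0329 and 0.0467). The cause was not tested. With the replicate block, fitted without the sham day 3 array, the count was 0 in every comparison. Correlations of the deviations from group means over 26 same-numbered pairs had a median of -0.08, and 9 exceeded 0.1. In a group of 2 the deviations are exact opposites. The pairs are thus not independent and cannot decide whether samples of the same number deviate together. Over all genes, the counts of calls ranged over these settings from 0 to 1 at day 1, 0 to 100 at day 3, 0 to 47 at day 5, 0 to 2 at day 12, 0 to 309 at day 26, 0 to 24 over the mean of the days, 0 to 359 between late and early days, and 0 to 136 and 0 to 67 in the F-tests for any day against sham and among the days, beside 0, 1, 6, 0, 5, 3, 1, 3 and 0 in the fit reported. The genes followed through these settings kept their direction in all of them. The median of the set at day 26 was -0.13 with equal array medians, and that between late and early days -0.15, beside -0.06 as reported. The late and early median was 0.00 without proton day 12 replicate 2 and -0.02 without proton day 3 replicate 2. The deposited values did not allow another background correction or a slide block. Groups of 2 or 3 samples with a median SE of 0.10 at day 5 limit what could be called.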
